A study of Mus musculus with 15 samples.

Results

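The striatal projection neuron markers described here are 8 genes, Drd1, Drd2, Adora2a, Ppp1r1b, Rgs9, Pde10a, Penk and Pdyn, taken by their symbols from a table of 46078 genes. All 8 passed the filter on low counts and are among the 18974 genes tested. They were read in RNA sequencing libraries of brain tissue from 15 mice, 1 library per mouse, in 3 groups of 5. The first group was APP-PS1 mice injected with an antibody against CD8a, the second APP-PS1 mice given PBS, and the third wild-type (WT) mice given PBS. The animals were 12 months old and were treated for 4 weeks, with 10 injections of 0.8 mg antibody or with 100 µL of PBS. APP-PS1 mice model amyloid deposition in Alzheimer's disease. They carry the Swedish mutant of a mouse and human amyloid precursor protein and a mutant human presenilin 1 (dE9), both placed in neurons of the central nervous system by the prion protein promoter. An isotype antibody is named among the treatments, but no library of that kind was analysed here, so the antibody is set against PBS alone. The dissected region is not named in the sources used here, and nothing in them says that it was striatum. The study's title asks how CD8+ T cells bear on neuronal and synaptic gene expression, and the genes below are one neuronal readout of that question.

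Projection neurons are the principal cells of the striatum, and they fall into a direct and an indirect output pathway. Those of the direct pathway carry the D1 dopamine receptor, encoded by Drd1, which raises cAMP, and make dynorphin from the precursor encoded by Pdyn. Those of the indirect pathway carry the D2 receptor, encoded by Drd2, which lowers cAMP, together with an adenosine receptor (Adora2a), and make enkephalin from the precursor encoded by Penk. Cells of both pathways hold DARPP-32 (Ppp1r1b), a phosphatase inhibitor switched on by protein kinase A, the phosphodiesterase PDE10A (Pde10a), which breaks down cyclic nucleotides, and RGS9 (Rgs9), which shortens G protein signals. None of the 8 is confined to the striatum. Dynorphin is known from granule cells of the hippocampal dentate gyrus, enkephalin from cortical and hippocampal neurons, and DARPP-32 from the epithelium of the choroid plexus.

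The places of the genes are given on GRCm38. Drd1 lies at chr13:54051183-54055705 (minus strand), Drd2 at chr9:49340627-49408177 (plus), Adora2a at chr10:75316877-75334784 (plus) and Ppp1r1b at chr11:98348404-98357796 (plus). Rgs9 lies at chr11:109225355-109298129 (minus), Pde10a at chr17:8525372-8986648 (plus), Penk at chr4:4133531-4138819 (minus) and Pdyn at chr2:129686565-129699844 (minus). Exons of Ppp1r1b overlap those of 1700003D09Rik on the other strand, which had 18 to 87 counts per library, and exons of Penk overlap those of A830012C17Rik, which had 0 to 8. The kit marks strand, but how strand was used in counting is not stated in the labels. Whether reads in these shared exons were counted for the right gene, or counted at all, is therefore not known.

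In the table of RefSeq starts used here (GRCm38.p6), 5 of the 8 genes were matched by symbol, with 8 windows of 250 bases before a start, and the windows of Adora2a, Ppp1r1b and Penk were not used here. Shown are the windows at the outermost listed start of Drd1 and Drd2, the receptors that separate the pathways, and of Pdyn, the gene whose levels did not overlap between the APP-PS1 groups. Each runs 5′ to 3′ on the gene's strand, and capitals mark a GC box.
Drd1, chr13:54055659-54055908, minus strand: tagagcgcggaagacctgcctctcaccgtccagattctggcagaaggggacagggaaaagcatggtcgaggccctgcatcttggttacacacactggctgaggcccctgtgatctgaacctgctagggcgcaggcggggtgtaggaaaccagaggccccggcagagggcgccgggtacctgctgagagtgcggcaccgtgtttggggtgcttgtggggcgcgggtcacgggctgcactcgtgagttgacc
Drd2, chr9:49340153-49340402, plus strand: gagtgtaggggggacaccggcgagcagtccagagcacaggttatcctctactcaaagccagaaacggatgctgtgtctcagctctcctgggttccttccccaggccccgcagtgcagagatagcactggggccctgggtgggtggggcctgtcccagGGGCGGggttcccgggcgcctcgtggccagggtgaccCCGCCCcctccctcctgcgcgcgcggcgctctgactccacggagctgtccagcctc
Pdyn, chr2:129699939-129700188, minus strand: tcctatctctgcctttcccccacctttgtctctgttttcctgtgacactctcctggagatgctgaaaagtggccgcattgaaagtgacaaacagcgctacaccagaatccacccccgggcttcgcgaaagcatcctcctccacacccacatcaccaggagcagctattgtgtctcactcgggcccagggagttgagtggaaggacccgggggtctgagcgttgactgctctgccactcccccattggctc
The windows were searched on both strands for TGACG (the core of a cAMP response element), TGCGTCA (the enkephalin cAMP element), the GC box GGGCGG and the TATA motif TATAAA. These are present in 17.8%, 1.75%, 32.7% and 12.4% of the 32851 windows of this length in the table, and each match of the second holds the first on the other strand. The Drd2 window holds 2 GC boxes, 1 on each strand, and the Drd1 and Pdyn windows shown hold none of the 4 motifs. Of the windows not shown, 1 each of Drd1, Pde10a and Rgs9 holds a GC box, and that of Rgs9 also a TATA motif. A match is a description of letters and not of a bound site.

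Libraries held 28955514 to 36485809 gene counts in anti-CD8a mice, 17736524 to 32535945 under PBS in APP-PS1 mice and 24001016 to 35785584 in WT mice. App separated the genotypes as labelled. It averaged 2770 ± 266 CPM (counts scaled to library size) in anti-CD8a mice and 2710 ± 225 CPM in APP-PS1 mice given PBS, against 1260 ± 40.6 CPM in the WT group (5 mice each, ± SD). Cd8a, the antibody's target, summed to 53, 42 and 33 counts over the same groups, too few to check the treatment. Females by label numbered 2, 2 and 4, and 1 library labelled male, APP-PS1 PBS replicate 1, had the Xist and Y-linked levels of a female. Ttr, by which choroid plexus tissue is recognised, exceeded 1000 CPM in 5 libraries that stand apart (anti-CD8a replicate 1, APP-PS1 PBS replicates 2 and 5, WT replicates 3 and 5) and from 20.7 to 107 CPM in the other 10. Results for Ppp1r1b, Drd2, Penk and Pdyn are given with and without those 5.

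All 8 genes were detected in every library, at levels from low to above the median gene of this tissue. Per kilobase of exon, Penk averaged 11.1 ± 2.28 and Ppp1r1b 10.7 ± 2.94 CPM over the 15 libraries (SD). The next in order were Pde10a at 7.81 ± 0.934, Pdyn at 4.64 ± 0.946 and Rgs9 at 2.46 ± 0.252 CPM per kilobase. The receptors came last, with Drd1 at 1.53 ± 0.273, Drd2 at 0.551 ± 0.211 and Adora2a at 0.455 ± 0.0925 CPM per kilobase. Penk thus stood at percentile 76.4 of the 18870 tested genes with a known length, and Adora2a at percentile 16.1, around a median gene of 3.58 CPM per kilobase. Some neighbours in this order were not separated: Penk was above Ppp1r1b in 7 of 15 libraries and Drd2 above Adora2a in 10 of 15. Pdyn was above Rgs9, and Rgs9 above Drd1, in all 15, with ranges that did not overlap. Beside them, 29 other genes known from striatal projection neurons had a median of 4.40 CPM per kilobase, 14 cortical excitatory genes 5.72 and 11 hippocampal neuron genes 20.1. In bulk tissue, fewer cells of a type and less RNA per cell cannot be told apart.

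**Figure D1:**
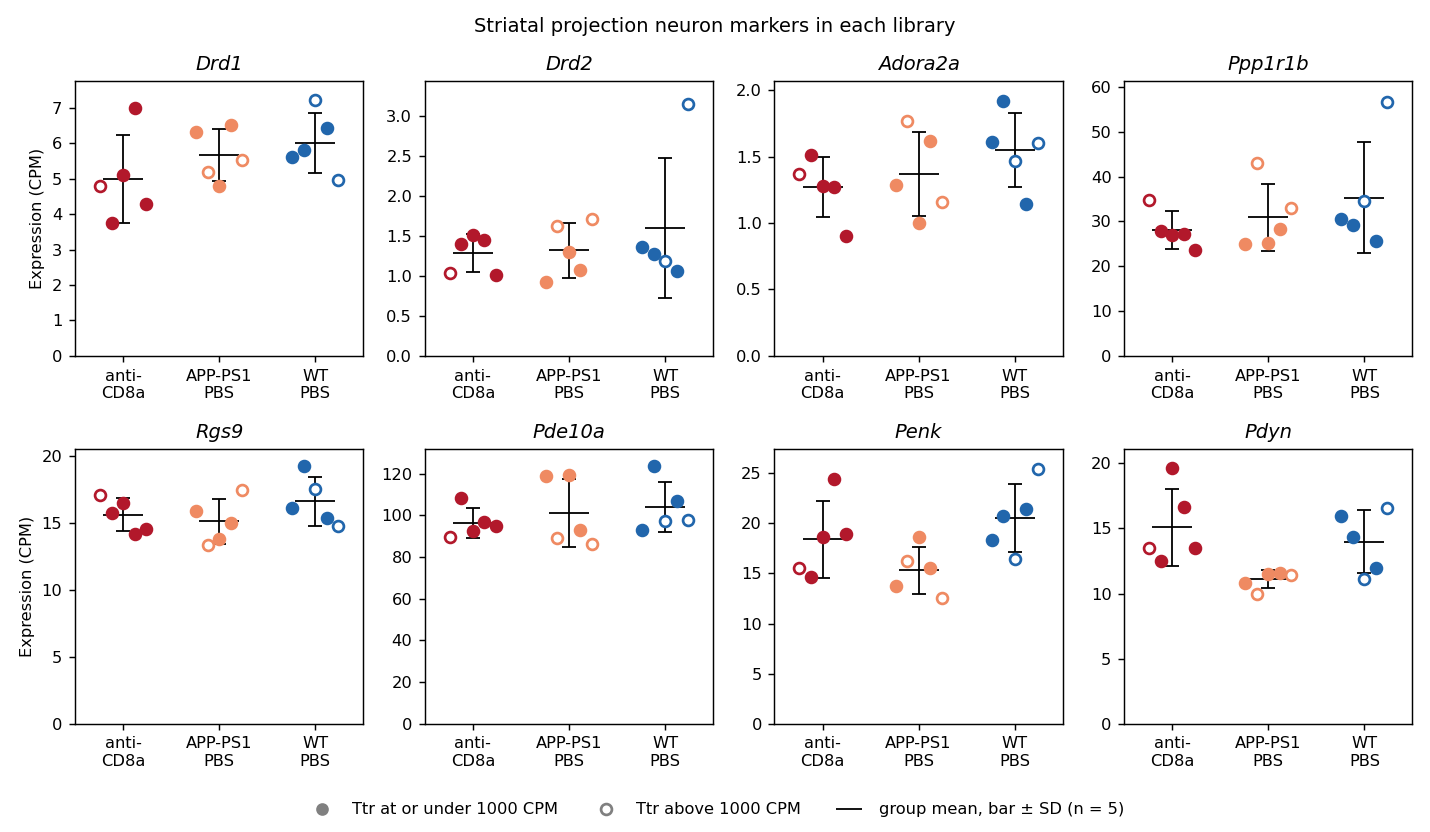
Level of each of the 8 genes in CPM (vertical axis, from 0) in each library, by group; open circles are the 5 libraries above 1000 CPM of Ttr, and bars are the group mean ± SD (n = 5). Pdyn lies between 12.5 and 19.6 CPM in anti-CD8a mice and between 9.95 and 11.6 CPM in APP-PS1 mice given PBS, while WT replicate 5 stands above the rest for Drd2 and Ppp1r1b.

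The ranges of the dopamine receptor genes overlapped between groups. Drd1 had 4.80, 3.76, 5.12, 6.98 and 4.28 CPM in anti-CD8a mice, 6.31, 5.19, 4.81, 6.52 and 5.52 CPM in APP-PS1 mice given PBS, and 5.62, 5.80, 7.21, 6.44 and 4.97 CPM in WT mice. All 3 ranges overlapped, and anti-CD8a replicate 4 stood highest in its group. Drd2 had 1.03, 1.40, 1.51, 1.44 and 1.02 CPM in anti-CD8a mice, 0.925, 1.62, 1.30, 1.07 and 1.71 CPM in APP-PS1 mice given PBS, and 1.36, 1.27, 1.18, 1.06 and 3.15 CPM in WT mice. It rested on 25 to 112 counts per library, and all 3 groups overlapped, with WT replicate 5 above the rest. The ratio of Drd1 to Drd2 counts was 3.95 ± 0.901 in anti-CD8a mice, 4.61 ± 1.72 under PBS in APP-PS1 mice and 4.49 ± 1.85 in WT mice (SD, n = 5 each). Its lowest value, 1.58, was again WT replicate 5. Adora2a, the other receptor of the indirect pathway, had 21 to 57 counts per library and averaged 1.27 ± 0.224, 1.37 ± 0.317 and 1.55 ± 0.281 CPM in the same order of groups.

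The transcripts of the signalling proteins inside the cell varied less, except Ppp1r1b. Rgs9 averaged 15.6 ± 1.24 CPM in anti-CD8a mice, 15.1 ± 1.66 CPM under PBS in APP-PS1 mice and 16.6 ± 1.81 CPM in WT mice. Pde10a averaged 96.4 ± 7.23, 101 ± 16.4 and 104 ± 12.2 CPM in those groups. The highest library was 1.45 times the lowest for Rgs9 and 1.44 times for Pde10a, against 3.40 for Drd2 and 2.41 for Ppp1r1b. Ppp1r1b had 34.9, 27.8, 27.0, 27.3 and 23.5 CPM in anti-CD8a mice, 24.9, 43.0, 25.3, 28.4 and 33.0 CPM in APP-PS1 mice given PBS, and 30.5, 29.3, 34.5, 25.6 and 56.7 CPM in WT mice. In each group the libraries rich in Ttr were the highest for this gene.

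The opioid precursor genes, Penk and Pdyn, gave the smallest p values of the set in the comparisons for the transgenes and the antibody. Penk had 15.6, 14.6, 18.6, 24.4 and 18.9 CPM in anti-CD8a mice, 13.7, 16.2, 18.6, 15.5 and 12.5 CPM in APP-PS1 mice given PBS, and 18.4, 20.7, 16.5, 21.4 and 25.5 CPM in WT mice. Of the APP-PS1 mice given PBS, 4 of 5 lay below the lowest WT mouse, and anti-CD8a mice spread over both ranges. Pdyn had 13.5, 12.5, 19.6, 16.6 and 13.5 CPM in anti-CD8a mice, 10.8, 9.95, 11.5, 11.6 and 11.4 CPM in APP-PS1 mice given PBS, and 16.0, 14.4, 11.1, 12.0 and 16.6 CPM in WT mice. The 5 APP-PS1 mice given PBS formed a narrow band, below every anti-CD8a mouse, with 1 WT mouse (11.1 CPM) inside it and 4 above it. The ratio of Penk to Pdyn counts was 1.23 ± 0.209, 1.39 ± 0.230 and 1.48 ± 0.226 in anti-CD8a, APP-PS1 PBS and WT mice (SD, n = 5 each).

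The first comparison, APP-PS1 against WT mice given PBS, concerns the transgenes. All 8 genes had estimates below 0, with a median log2 fold change of -0.21 (-0.01 over all genes), and 53.1% of all genes tested had estimates below 0. None of the 8 passed an adjusted p of 0.05 in edgeR's quasi-likelihood test, where 1.03% of all genes did, 178 higher and 17 lower in APP-PS1 mice. Penk came nearest, at 15.3 ± 2.34 CPM in APP-PS1 mice and 20.5 ± 3.40 CPM in WT mice. Its log2 fold change was -0.52 (SE 0.13, 95% interval 0.576 to 0.845 as a fold, adjusted p = 0.0829 in edgeR). This call depends on the settings: DESeq2 called Penk (adjusted p = 0.0121), limma-voom did not (adjusted p = 0.106), and the adjusted p over all settings in edgeR, DESeq2 and limma-voom ran from 0.0121 to 0.753. With 1 library left out, the estimate of Penk ran from -0.60 to -0.46. It was -0.46 without WT replicate 5 (edgeR adjusted p = 0.271) and -0.42 with no sex covariate (edgeR adjusted p = 0.252). Pdyn averaged 11.1 ± 0.677 CPM in APP-PS1 mice and 14 ± 2.41 CPM in WT mice, a log2 fold change of -0.34 ± 0.14 (SE, edgeR adjusted p = 0.358). At an unadjusted p under 0.05, Penk and Pdyn passed, 2 of 8, both on the lower side, against 11.4% of all genes and 6.02% on the lower side. With 1 library left out, the estimate of Pdyn ran from -0.41 to -0.20, and it did not reach an unadjusted p of 0.05 without WT replicate 1 (-0.30) or WT replicate 5 (-0.20). Without the 5 libraries rich in Ttr, Penk was at -0.50 (SE 0.17) and Pdyn at -0.27 (SE 0.19).

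The remaining 6 genes did not reach an unadjusted p of 0.05 in this comparison. Ppp1r1b had a log2 fold change of -0.28 (SE 0.18) and Drd2 one of -0.39 (SE 0.28). Both estimates turned without WT replicate 5, the only WT mouse labelled male, to 0.02 for Ppp1r1b and 0.23 for Drd2. Without the 5 libraries rich in Ttr they were -0.03 (SE 0.10) for Ppp1r1b and -0.08 (SE 0.28) for Drd2. Drd1 was at -0.06 (SE 0.17), Adora2a at -0.13 (SE 0.20), Rgs9 at -0.08 (SE 0.09) and Pde10a at -0.05 (SE 0.11). The intervals were narrowest for Rgs9 (0.831 to 1.07 as a fold) and Pde10a (0.823 to 1.13), and widest for Drd2 (0.505 to 1.16), the gene whose WT libraries spread most relative to their mean. A difference the size of that of Penk lay outside the intervals of Rgs9 and Pde10a and inside that of Drd2.

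**Figure D2:**
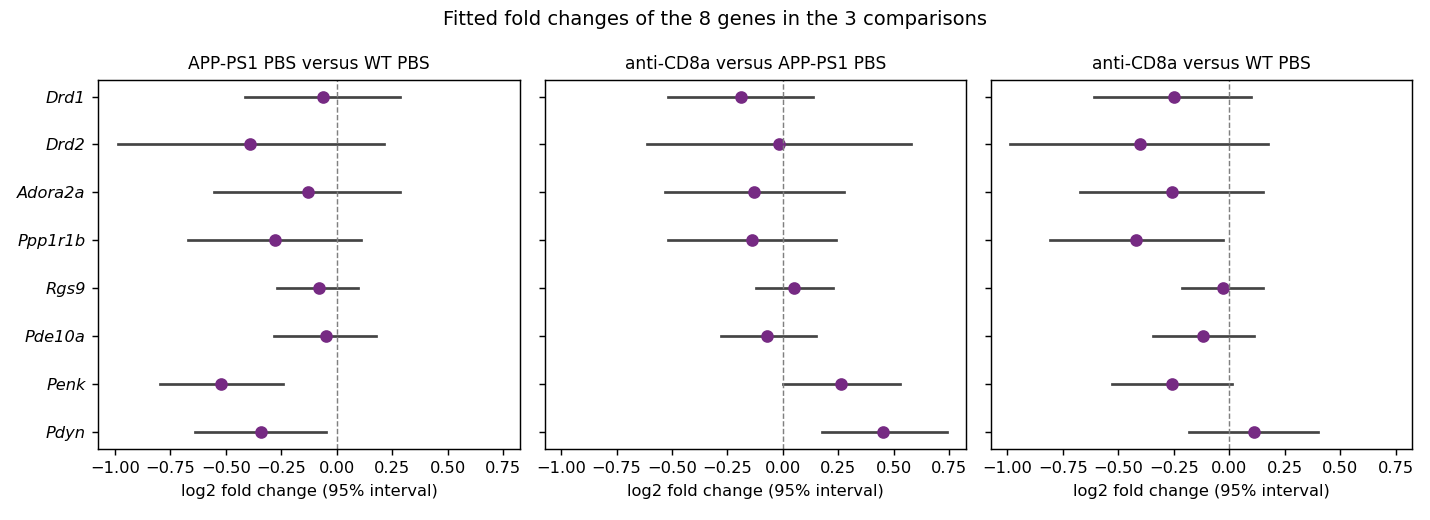
Log2 fold change of each of the 8 genes (points) with its 95% interval (lines) from edgeR, for APP-PS1 PBS versus WT PBS (left), anti-CD8a versus APP-PS1 PBS (middle) and anti-CD8a versus WT PBS (right); the dashed line is no difference. Penk at -0.52 on the left and Pdyn at 0.45 in the middle lie farthest from 0 relative to their errors, and no gene passed an adjusted p of 0.05.

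The second comparison, anti-CD8a against PBS in APP-PS1 mice, concerns the antibody. Pdyn was higher in each of the 5 anti-CD8a mice than in any of the 5 given PBS, at 15.1 ± 2.95 against 11.1 ± 0.677 CPM. Of all genes tested, 0.954% were higher in the same way without overlap. The log2 fold change of Pdyn was 0.45 (SE 0.13, 95% interval 1.13 to 1.67 as a fold), and its adjusted p was 0.234 in edgeR, so it did not pass. Penk, at 18.4 ± 3.82 CPM in anti-CD8a mice and 15.3 ± 2.34 CPM in those given PBS, had a log2 fold change of 0.26 ± 0.12 (SE, edgeR adjusted p = 0.374). No gene of the 18974 passed in edgeR (0%), with 13.3% at an unadjusted p under 0.05 (7.59% higher). Of the 8, Pdyn alone was among them. DESeq2 called 143 genes, none of them among the 8, with Pdyn at an adjusted p of 0.0621, and limma-voom called none of the 8. DESeq2 gave no adjusted p for Drd2 and Adora2a in this comparison.

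The receptors and signalling genes gave small estimates for the antibody. Drd1 was at -0.19 (SE 0.16), Adora2a at -0.13 (SE 0.19), Ppp1r1b at -0.14 (SE 0.18), Pde10a at -0.07 (SE 0.10), Drd2 at -0.02 (SE 0.28) and Rgs9 at 0.05 (SE 0.08) on the log2 scale. Of the 8 estimates 5 were below 0, against 45.9% of all genes, and the median was -0.04 (0.02 over all genes). The 95% interval of Rgs9 ran from 0.919 to 1.17 as a fold and that of Drd2 from 0.653 to 1.49. The first and second comparisons share the APP-PS1 mice given PBS. Without the 5 libraries rich in Ttr, Pdyn was at 0.44 (SE 0.15) for the antibody, Penk at 0.28 (SE 0.14), Ppp1r1b at -0.02 (SE 0.08) and Drd2 at 0.26 (SE 0.22). The opposite signs of Penk and Pdyn in the first and second comparisons are therefore not independent of each other.

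The third comparison sets anti-CD8a mice against WT mice and joins genotype and antibody. Of the 8 estimates 7 were below 0 (51.1% of all genes), with a median of -0.25 (0 over all genes). None of the 8 passed in edgeR, DESeq2 or limma-voom, while 1.94% of all genes passed in edgeR. Ppp1r1b was the single one at an unadjusted p under 0.05 (12.1% of all genes, 5.29% lower), at 28.1 ± 4.16 CPM in anti-CD8a mice and 35.3 ± 12.4 CPM in WT mice. Its log2 fold change was -0.42 (SE 0.18, edgeR adjusted p = 0.371). Penk was at -0.26 (SE 0.13), Drd2 at -0.40 (SE 0.28), Drd1 at -0.25 (SE 0.17) and Adora2a at -0.26 (SE 0.19). Pdyn, at 0.11 (SE 0.14), was the gene with an estimate above 0. Pde10a (-0.12, SE 0.11) and Rgs9 (-0.03, SE 0.09) were nearest to 0 among those below it. Without the 5 libraries rich in Ttr, Penk was at -0.22 (SE 0.16), Pdyn at 0.17 (SE 0.17) and Drd2 at 0.18 (SE 0.24).

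Hippocampal neuron genes moved with Pdyn and Penk. This list of 11 (Prox1, Dsp, C1ql2, Lct, Tdo2, Wfs1, Fibcd1, Cabp7, Spink8, Zbtb20 and Pdzd2) was detected in full in every library. Its summed level ran from 1300 to 1710 CPM in anti-CD8a mice, from 1200 to 1470 CPM under PBS in APP-PS1 mice and from 1260 to 1620 CPM in WT mice. Its mean log2 CPM, which weights the genes equally, ran from 6.06 to 6.30 in anti-CD8a mice, from 5.84 to 5.98 under PBS in APP-PS1 mice and from 5.93 to 6.26 in WT mice. By that mean, as by Pdyn, the groups of APP-PS1 mice did not overlap. None of the 11 passed in any comparison in edgeR. Between the APP-PS1 and WT groups given PBS, 10 of 11 estimates were below 0 (median log2 fold change -0.24). Between anti-CD8a and PBS in APP-PS1 mice, 11 of 11 were above 0 (median 0.25). The median was -0.02 between anti-CD8a and WT mice.

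Over the 15 libraries, Pdyn and the mean log2 CPM of the hippocampal list had a Pearson r of 0.81 (Spearman 0.73), and 0.62 with group means taken out. For Penk, r was 0.62 (Spearman 0.63), and 0.36 with group means taken out. For the other 6 genes r lay between -0.24 (Drd1) and 0.24 (Drd2). Within groups other lists had values of like size for Pdyn: with group means taken out, r was 0.60 with 10 microglia genes, 0.57 with 10 oligodendrocyte genes, 0.57 with 8 astrocyte genes, -0.56 with 8 general neuronal genes and -0.55 with 12 GABAergic genes. In the 10 libraries low in Ttr, Pdyn had an r of 0.71 with the hippocampal and 0.69 with the oligodendrocyte list. The points share library, depth and dissection, and r was computed for 8 genes with 14 lists, 112 relations in all, as a description. With the list's level as a covariate, the log2 fold change of Pdyn for the antibody was 0.07 (SE 0.17) in place of 0.45, and for the transgenes 0.05 (SE 0.18) in place of -0.34. That of Penk was 0.06 (SE 0.19) in place of 0.26 for the antibody and -0.31 (SE 0.20) in place of -0.52 for the transgenes. The covariate itself does not overlap between the APP-PS1 groups, so list level and antibody cannot be told apart in this fit. It ran from 5.84 to 5.98 in APP-PS1 mice given PBS and from 5.93 to 6.26 in WT mice. List level and transgenes are thus hard to tell apart as well.

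**Figure D3:**
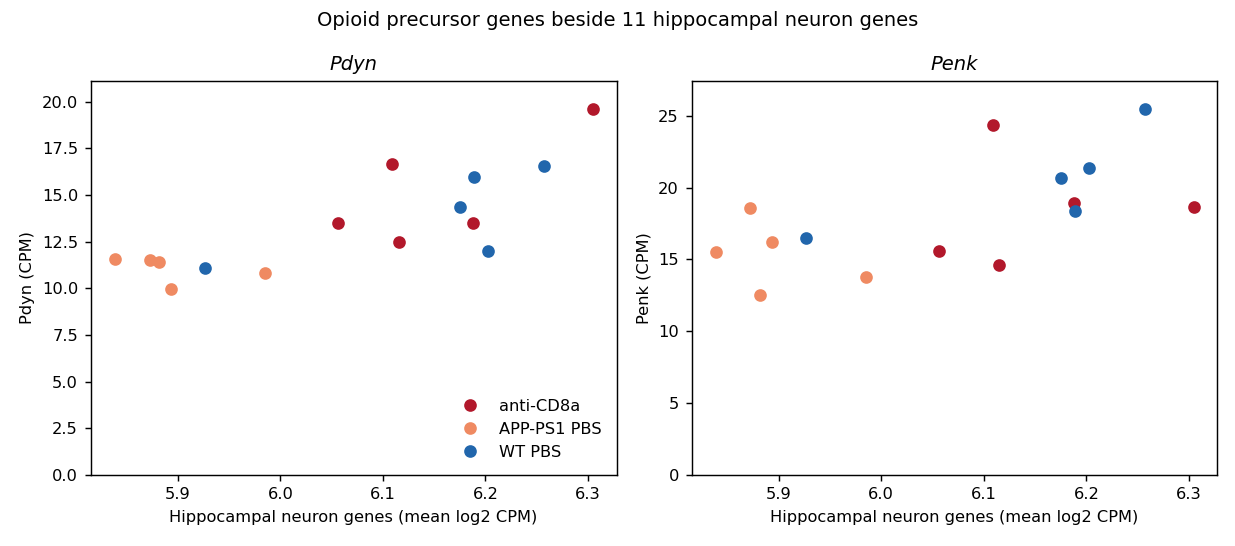
Pdyn (left) and Penk (right) in CPM against the mean log2 CPM of 11 hippocampal neuron genes, 1 point per library, coloured by group. The APP-PS1 PBS libraries sit at the left between 5.84 and 5.98, with Pdyn at 9.95 to 11.6 CPM, and the anti-CD8a libraries to the right of them with higher Pdyn.

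Choroid plexus content moved with Ppp1r1b. The gene ran from 33.0 to 56.7 CPM in the 5 libraries rich in Ttr and from 23.5 to 30.5 CPM in the other 10, without overlap. The share of all genes that separate in this way between these sets of libraries is not given here. Drd2 overlapped between them: it averaged 1.74 ± 0.837 CPM in the 5 and 1.23 ± 0.203 CPM in the 10, and 3 of the 5 (1.62, 1.71 and 3.15 CPM) lay above the highest of the 10 (1.51 CPM). Pde10a averaged 91.9 ± 5.2 CPM in the 5 and 105 ± 12.3 CPM in the 10. The 14 choroid plexus genes were all detected, and their summed level ran from 277 to 3300 CPM in anti-CD8a mice, from 313 to 7300 CPM under PBS in APP-PS1 mice and from 265 to 11200 CPM in WT mice. Their median log2 fold change was -0.47 for APP-PS1 against WT mice given PBS, -1.87 for anti-CD8a against PBS and -2.34 for anti-CD8a against WT, with none past the test in edgeR. Without the 5 libraries the log2 fold change of Ppp1r1b between anti-CD8a and WT mice was -0.05 in place of -0.42, and with the choroid plexus level as a covariate it was -0.13. Within the 10 libraries Ppp1r1b and the choroid list had a Pearson r of 0.33. The genes most like Ppp1r1b over the 15 libraries were Ocln (r = 0.96), Acaa2 (0.96), Cdr2 (0.95), Slc4a2 (0.95) and Rdh5 (0.95), of which Ocln encodes the tight junction protein occludin and Slc4a2 an anion exchanger.

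Other cell type lists also moved with Ppp1r1b and Drd2 over the 15 libraries. Ppp1r1b had an r of 0.89 with the choroid plexus list (0.89 without WT replicate 5), 0.72 with the 3 tested genes of the cholinergic list (0.48), 0.61 with 8 ependymal genes (0.43) and 0.50 with 10 oligodendrocyte genes (0.40). Drd2 had an r of 0.69 with the cholinergic list (0.39 without WT replicate 5), 0.58 with the choroid plexus list (0.33), 0.58 with the oligodendrocyte list (0.55) and 0.41 with the ependymal list (0.04). With 26 other genes known from striatal projection neurons (mean of at least 1 CPM), r was 0.66 for Ppp1r1b and 0.42 for Drd2. Without WT replicate 5 these values were 0.50 and 0.04, and in the 10 libraries low in Ttr 0.08 and -0.15. In those 10, r of Ppp1r1b was 0.33 with the choroid plexus, -0.07 with cholinergic, 0.08 with ependymal and 0.11 with oligodendrocyte genes. For Drd2 it was 0.17, 0.15, -0.25 and 0.44 in the same order. Over the 15 libraries, r with 8 general neuronal genes was -0.55 for both. It was -0.45 for Ppp1r1b and -0.48 for Drd2 without WT replicate 5, and -0.26 and -0.27 in the 10 libraries. The 3 cholinergic genes are Slc5a7, Ache and Zic4, whereas Chat and Slc18a3, which define cholinergic neurons, were at most 0.202 and 0.197 CPM in any library. The part of these lists in the levels of the 8 genes was not tested beyond the covariates given above.

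**Figure D4:**
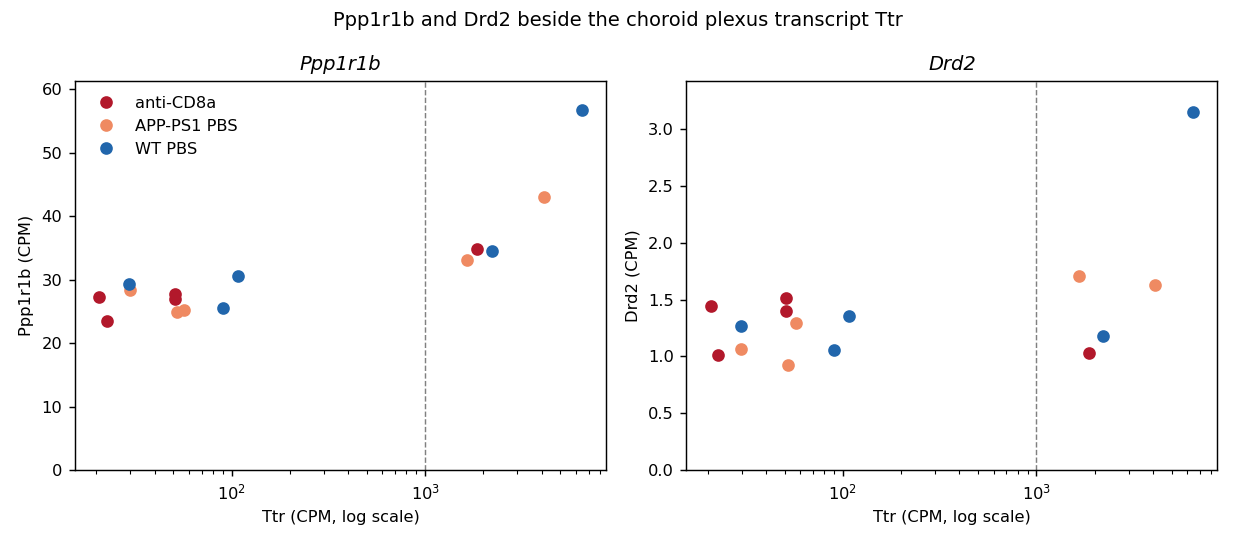
Ppp1r1b (left) and Drd2 (right) in CPM against Ttr in CPM (log axis), 1 point per library, coloured by group; the dashed line marks 1000 CPM of Ttr. The 5 libraries to its right hold the highest Ppp1r1b values, 33.0 to 56.7 CPM, and Drd2 is highest in WT replicate 5, at 3.15 CPM.

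The 8 genes did not vary as 1 unit. Over 28 pairs, the median Pearson r of log2 CPM was 0.08 over the 15 libraries, from -0.39 (Ppp1r1b and Pde10a) to 0.77 (Drd2 and Ppp1r1b), and 18 pairs were above 0. The Drd2 and Ppp1r1b value was 0.45 without WT replicate 5. Penk and Pdyn, which mark opposite pathways, had an r of 0.61, and 0.48 with group means taken out. Pairs from the same pathway had r of -0.11 for Drd1 and Pdyn, 0.29 for Drd2 and Adora2a, 0.38 for Drd2 and Penk and 0.03 for Adora2a and Penk. Adora2a and Ppp1r1b had an r of 0.54, and 0.89 in the 10 libraries low in Ttr. These points too share library, depth and dissection, and counting error is large for Drd2 and Adora2a.

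**Figure D5:**
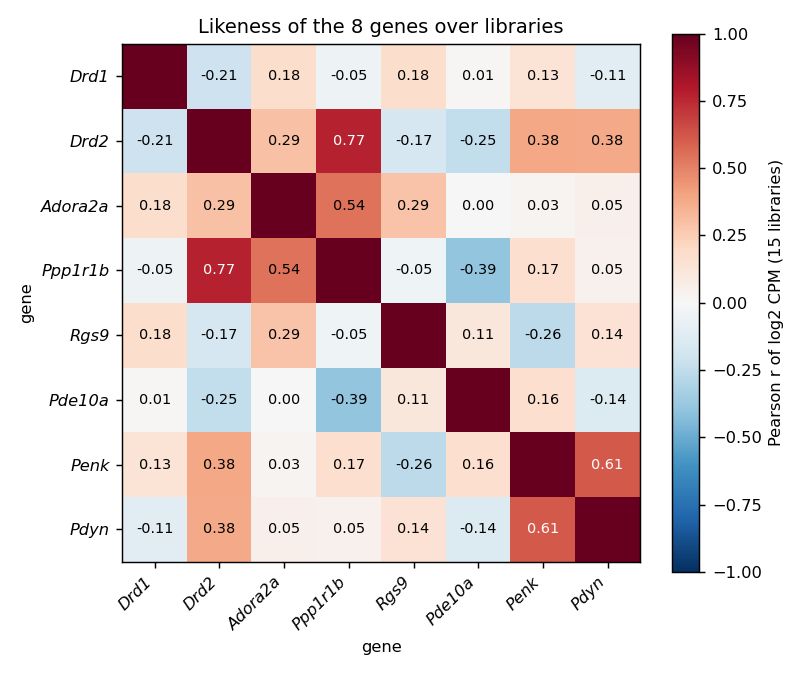
Pearson r of log2 CPM over the 15 libraries for each pair of the 8 genes (colour and number). The pairs Drd2 and Ppp1r1b (0.77) and Penk and Pdyn (0.61) have the highest values, and the median of the 28 pairs is 0.08.

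No gene outside the set followed all 8 closely. Among 15672 genes with a mean of at least 1 CPM, the highest mean r with the 8 was 0.37 for Pex11a, a peroxisomal membrane gene, followed by Dusp14 (0.36), Fam114a2 (0.36), Ism1 (0.36), Oxa1l (0.36), Bet1l (0.35), Yju2 (0.35), Pqlc1 (0.34), Pheta1 (0.34) and Dgat2 (0.34). Taken singly, Pdyn was most like Adcy1 (r = 0.92), a calcium-stimulated adenylyl cyclase, Penk was most like Eif4a1 (0.88) and Pde10a most like Dab1 (0.87). Drd2 was most like Smad6 (0.90), Adora2a most like Pdrg1 (0.85), Drd1 most like Gm15631 (0.81) and Rgs9 most like Gpsm1 (0.77). Pde10a had an r of -0.77 with 10 oligodendrocyte genes and 0.67 with 8 general neuronal genes.

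GABAergic neuron genes, which striatal projection neurons share in part (Gad1, Gad2 and Slc32a1 make and load GABA), had mostly lower estimates in both APP-PS1 groups than in WT mice. Of 12 genes, 11 had estimates below 0 in APP-PS1 against WT mice given PBS, with a median log2 fold change of -0.21, the same as that of the 8. Their summed level ran from 928 to 1130 CPM in anti-CD8a mice, from 1050 to 1160 CPM under PBS in APP-PS1 mice and from 1190 to 1280 CPM in WT mice. Npy, a peptide of interneurons, passed, with 22.6 ± 1.96 CPM in APP-PS1 mice given PBS and 32.4 ± 2.33 CPM in WT mice (log2 fold change -0.49, SE 0.07, edgeR adjusted p = 0.00168). It also passed between anti-CD8a mice, at 23.3 ± 1.22 CPM, and WT mice (-0.45, SE 0.07, edgeR adjusted p = 0.0021). The first of these calls was lost with the hippocampal level as a covariate (edgeR adjusted p = 0.0741), which overlaps little between these groups. It was also lost without the 5 libraries rich in Ttr (edgeR adjusted p = 0.0579). The log2 fold change was -0.46 in both fits. The second call was kept in all 26 alternatives. Sst, another interneuron peptide, did not pass, at -0.56 (SE 0.15, edgeR adjusted p = 0.095) in APP-PS1 against WT mice given PBS. Between anti-CD8a and WT mice, 12 of 12 estimates were below 0 (median -0.24), and for the antibody 7 of 12 (median -0.06).

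Among glial lists, 7 of 10 microglia genes passed on the higher side in APP-PS1 against WT mice given PBS and 9 of 10 in anti-CD8a against WT mice, with none for the antibody in edgeR. Of 8 astrocyte genes, 2 (Gfap and Aqp4) and 1 (Gfap) passed on the higher side in the same comparisons, where 8 and 7 estimates were above 0. Of 7 hypothalamic genes tested, 1 passed, Pmch, higher in anti-CD8a than in WT mice at 0.757 ± 1.03 against 0.23 ± 0.147 CPM. Its level was low, and anti-CD8a replicate 2, at 2.59 CPM, held 91 of its 191 counts over the 15 libraries. Whether the call of Pmch stands without that library was not tested. None passed in edgeR in any comparison in the cortical excitatory, thalamic, cerebellar, olfactory bulb, midbrain dopamine, cholinergic, ependymal, oligodendrocyte and general neuronal lists.

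Other genes known from striatal projection neurons were compared as a list of 30, of which 29 were tested. Between the APP-PS1 and WT groups given PBS none passed in edgeR, 22 estimates were below 0 and the median log2 fold change was -0.13. Arpp21, a cAMP-regulated phosphoprotein, had a log2 fold change of -0.46 ± 0.11 (SE, edgeR adjusted p = 0.0698), with 130 ± 17 CPM in APP-PS1 and 172 ± 25.1 CPM in WT mice. Gng7, a G protein gamma subunit of the receptor-cyclase route in striatum, was at -0.22 (SE 0.07). For the antibody none passed, 17 were below 0 and the median was -0.09. Pde1b, a calmodulin-dependent phosphodiesterase, was at 0.26 (SE 0.07, edgeR adjusted p = 0.223), Gng7 at 0.21 (SE 0.07), Lrrc10b at 0.34 (SE 0.11) and the retinoid receptor gene Rxrg at -0.57 (SE 0.16).

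Between anti-CD8a and WT mice, 1 of the 29 passed, on the lower side, and the median was -0.08. Of all genes, 1.94% passed. The gene was Isl1, a transcription factor of direct-pathway neurons and also of cholinergic ones, with a log2 fold change of -3.21 ± 0.77 (SE, edgeR adjusted p = 0.0411). It averaged 0.137 ± 0.195 CPM in anti-CD8a and 0.573 ± 0.737 CPM in WT mice, a smaller ratio than the fitted fold (the fit has a term for labelled sex). Its counts were 2, 2, 0, 14 and 3 in anti-CD8a mice and 10, 2, 4, 12 and 66 in WT mice, so the groups overlap and WT replicate 5 holds most of the reads. Without that library its adjusted p was 0.289, and it lost its call in 17 of 25 alternatives. Tac1, the precursor of substance P in direct-pathway neurons, was at -0.54 (SE 0.16, edgeR adjusted p = 0.11), with 5.63 ± 0.973 CPM in anti-CD8a and 8.70 ± 1.29 CPM in WT mice. Sp9, a transcription factor of indirect-pathway neurons, was at -0.61 (SE 0.17) and Arpp21 at -0.42 (SE 0.11).

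The dopamine and cAMP signalling list had 27 tested genes, and none passed in any of the 3 comparisons in edgeR. Of the other dopamine receptors, Drd5 averaged 11.8 CPM, above Drd1 and Drd2 also per kilobase (3.73 CPM), and Drd3 and Drd4 had at most 8 and 4 counts in a library. Adcy1 was at 1060 ± 51.9 CPM in APP-PS1 mice given PBS against 1280 ± 74.4 CPM in WT mice (log2 fold change -0.28, SE 0.08). In anti-CD8a mice it was at 1340 ± 150 CPM, a log2 fold change of 0.34 over APP-PS1 mice given PBS (SE 0.07, edgeR adjusted p = 0.223). Cdk5r1, the activator of a kinase that phosphorylates DARPP-32, was at -0.20 (SE 0.06) between the APP-PS1 and WT groups given PBS, and Creb1, a cAMP-responsive transcription factor, at -0.19 (SE 0.05) for the antibody.

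None of the 20 genes of the adenosine and opioid systems passed either. Pnoc, the nociceptin precursor, had 5.09 ± 0.741 CPM in the APP-PS1 PBS group and 6.98 ± 1.30 CPM in WT mice, a log2 fold change of -0.56 ± 0.14 (SE, edgeR adjusted p = 0.0691). Oprk1, the dynorphin receptor, had 2.18 ± 0.404 CPM in anti-CD8a mice and 3.58 ± 1.03 CPM under PBS, at -0.70 (SE 0.21, edgeR adjusted p = 0.237). Ada, which removes adenosine, was at -0.70 (SE 0.23) in that comparison. Mme, encoding neprilysin, which cuts enkephalins and also amyloid peptides, was at 0.38 (SE 0.11) in APP-PS1 against WT mice given PBS and at -0.27 (SE 0.10) for the antibody. Adora3, the A3 receptor, had 1.43 ± 0.554 CPM in anti-CD8a and 0.787 ± 0.175 CPM in WT mice, a log2 fold change of 0.96 ± 0.25 (SE, edgeR adjusted p = 0.0695).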

How the data were processed

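Poly(A) RNA was sequenced with a stranded kit, per the labels' protocols. The authors deposited raw counts of reads for each gene. The submitters' processing notes name Bowtie2 2.2.2, HTSeq 0.11.2, FastQC, DESeq2 and the build GRCm38. The annotation release and strand setting are not stated there. Bowtie2 does not align across introns, so reads over exon junctions can be lost. Lines naming no gene were left out (20.0 to 25.9% of reads per library without a feature).

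Counts were tested with edgeR 4.0.16 (R 4.3.3; quasi-likelihood, two-sided, TMM scaling). The 18974 genes that filterByExpr kept entered a single model of all 15 libraries, with terms for group and labelled sex, leaving 11 residual degrees of freedom. Benjamini-Hochberg adjustment ran over all genes, and 0.05 was the threshold. CPM were computed here with TMM; log2 CPM used a prior count of 2. Exon lengths come from GENCODE M21, for 18870 of the genes. At these depths 3 counts equal 0.0824 to 0.165 CPM, covering counting error only. No library repeats another of its group: chi-square divided by its degrees of freedom was 7.30 to 35.8 over 30 pairs. Animal numbers make each library a separate mouse.

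The 8 genes and the lists were chosen with earlier results of these data known, and 1 gene was taken out of the lists and is not reported here. Beside the 8, named genes are the 10 of highest mean r with them, the nearest gene of each, up to 4 of smallest p per list, and checks of genotype, treatment, tissue and sex. Drd5, Drd3, Drd4 and the genes singled out beside Ppp1r1b were named after their values were seen. Alternatives were DESeq2 1.42.0, limma-voom (limma 3.58.1), RLE size factors, no filter, other covariates, the 2 groups alone, and leaving out libraries. The hippocampal covariate and the alternatives for Isl1 and Npy were added after seeing the data.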

Additional observations from a re-analysis of the deposited data

Results flagged for a closer look

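Drd2 in WT mice and Ppp1r1b in WT mice each have 1 mouse far from the other 4, by Dixon's criterion for a gap within a group. In both it is WT replicate 5, with 3.15 CPM of Drd2 against 1.06 to 1.36 CPM in the other WT mice, and 56.7 CPM of Ppp1r1b against 25.6 to 34.5 CPM. The same library has the highest Ttr of the 15 (6463 CPM), the highest Penk (25.5 CPM) and 66 of the WT counts of Isl1, and is the highest for Zic1 (73.5 CPM, mean of the 15 libraries 25.1), Zic4 (18.3, mean 5.84), Slc5a7 (2.56, mean 1.44) and the summed ependymal genes (88.1 CPM). Its Drd1, at 4.97 CPM, is the lowest of the WT mice. The criterion was applied to 24 groups of 5, and chance alone marks about 1 in 20. It is also the only WT mouse labelled male, and its Xist and Y-linked levels match that label. Leaving it out therefore also leaves the WT group without a male. What sets this library apart was not tested.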

How the results depend on the processing

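Over 24 fold changes of the 8 genes and their alternatives, 596 of 624 values kept their direction and their side of the threshold. Of the rest, 4 passed it (Penk) and 24, in 13 fold changes, turned sign. A value without an adjusted p counts as keeping its side, as for Drd2 and Adora2a with DESeq2 between anti-CD8a and PBS. No paired analysis was possible because the labels share no replicate number between groups. The count of the 8 past the threshold between the APP-PS1 and WT groups given PBS was 1 (Penk) with DESeq2, with no filter, with the choroid plexus level added and without anti-CD8a replicate 1 (0 to 1 over libraries left out); in the other comparisons it was 0 throughout. Turned values for APP-PS1 against WT mice given PBS were 0.09 (Drd2), 0.02 (Pde10a) and 0.05 (Pdyn) with the hippocampal level added, 0.01 (Drd1) with the 2 groups alone and 0.01 (Adora2a) without the libraries rich in Ttr. For anti-CD8a against PBS they were 0.01 (Drd1) with the hippocampal level added, 0.15 (Drd2) and 0.03 (Ppp1r1b) with the choroid plexus level added and 0.26 (Drd2) without the libraries rich in Ttr, and for anti-CD8a against WT 0.18 (Drd2) without those. With 1 library left out, log2 fold changes ran from -0.11 to 0.03 (Pde10a), -0.18 to 0 (Drd1), -0.58 to 0.23 (Drd2) and -0.38 to 0.02 (Ppp1r1b) for APP-PS1 against WT mice given PBS. They ran from -0.15 to 0.15 (Drd2) and 0 to 0.09 (Rgs9) for anti-CD8a against PBS, and from -0.07 to 0.01 (Rgs9), -0.06 to 0.25 (Pdyn) and -0.55 to 0.19 (Drd2) for anti-CD8a against WT. Genes called between the APP-PS1 and WT groups given PBS numbered 361 with DESeq2, 115 with no sex covariate and 98 without the libraries rich in Ttr (145 to 253 with 1 library left out). Between anti-CD8a and PBS they numbered 143 with DESeq2, 13 with no filter and 1 with the 2 groups alone (0 to 3). Between anti-CD8a and WT they numbered 221 with the 2 groups alone and 199 without the libraries rich in Ttr (140 to 441, the lowest without anti-CD8a replicate 3). Isl1 lost its call in 17 of 25 alternatives. The cause of these changes was not tested.

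Depth limits Drd2 and Adora2a most, at 25 to 112 and 21 to 57 counts per library. With 5 mice a group, a p that misses the threshold does not show that groups are alike. Sex labels are uneven between groups, and 1 label goes against the sex genes.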
